A study of Mus musculus with 8 samples.

Results

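The genes described here are 37 named genes of the lysosome, of the vacuolar proton pump that acidifies it and of autophagy. They were chosen by name, as a list of lysosomal enzymes, membrane proteins, pump subunits and autophagy genes with the lysosome positioning GTPase gene Arl8b and with earlier results of these data known. They are 37 of the 55401 genes in the deposited tables, and all 37 were among the 13908 genes with enough counts to test. The RNA came from livers of C57BL/6J mice, of an age and sex that the labels leave out. In the shTbl1xr1 group an adeno-associated virus had carried a short hairpin RNA against Tbl1xr1, a subunit of the NCoR and SMRT corepressor complexes, to hepatocytes. In the shNC group the same kind of virus had carried a control hairpin. Both groups had partial hepatectomy, the removal of most of the liver, 4 weeks after the virus, and the RNA is from day 2 of regeneration. Each group has 4 libraries, and nothing in the labels ties them to separate animals, so the p-values rest on a spread between libraries that may be partly technical. The comparison asks which transcripts of regenerating liver differ when Tbl1xr1 is knocked down. The virus targets hepatocytes while the libraries hold RNA of the whole liver, and in such bulk RNA fewer cells of a type and less RNA per cell cannot be told apart.

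Lysosomes are the acidic compartments in which cells break down material taken up from outside or delivered from inside by autophagy. A proton pump in their membrane, built of a membrane part called V0 and a cytosolic part called V1 that splits ATP, keeps the lumen acidic enough for the hydrolases to work. Many of the genes carry a short promoter element to which the transcription factors TFEB and TFE3 bind, and liver uses this pathway heavily during fasting and during remodelling of the tissue.

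With libraries scaled by TMM, edgeR's correction for library composition, most of the 37 genes had higher levels in shTbl1xr1 than in shNC, by modest amounts, and none passed the threshold. The log2 fold change of shTbl1xr1 over shNC was positive for 32 of the 37 and negative for Scarb2, Lipa, Psap, Atp6v1a and Atp6v1b2. It ranged from -0.18 for Scarb2 to 1.02 for Arl8b, with a median of 0.32, against a median of 0.0063 over all genes tested. At an adjusted p under 0.05 in edgeR's quasi-likelihood test, 0 of the 37 were called higher and 0 lower, and over all genes 0.0431% were called higher and 0.00719% lower. By an unadjusted p under 0.05, 11 of the 37 were higher and 0 were on the lower side, against 7.9% of all genes higher and 3.71% lower. For 14 of the 37 every shTbl1xr1 library lay above every shNC library and for 0 every one lay below, against 3.88% and 3.37% of all genes. The direction depended on the scaling, since 20 of the 37 were positive with library size alone, with a median of 0.0056, and 11 of the 37 had a higher group mean in shTbl1xr1 by the deposited TPM. The list itself received no test, since it was put together with earlier results of these data known.

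**Figure D1:**
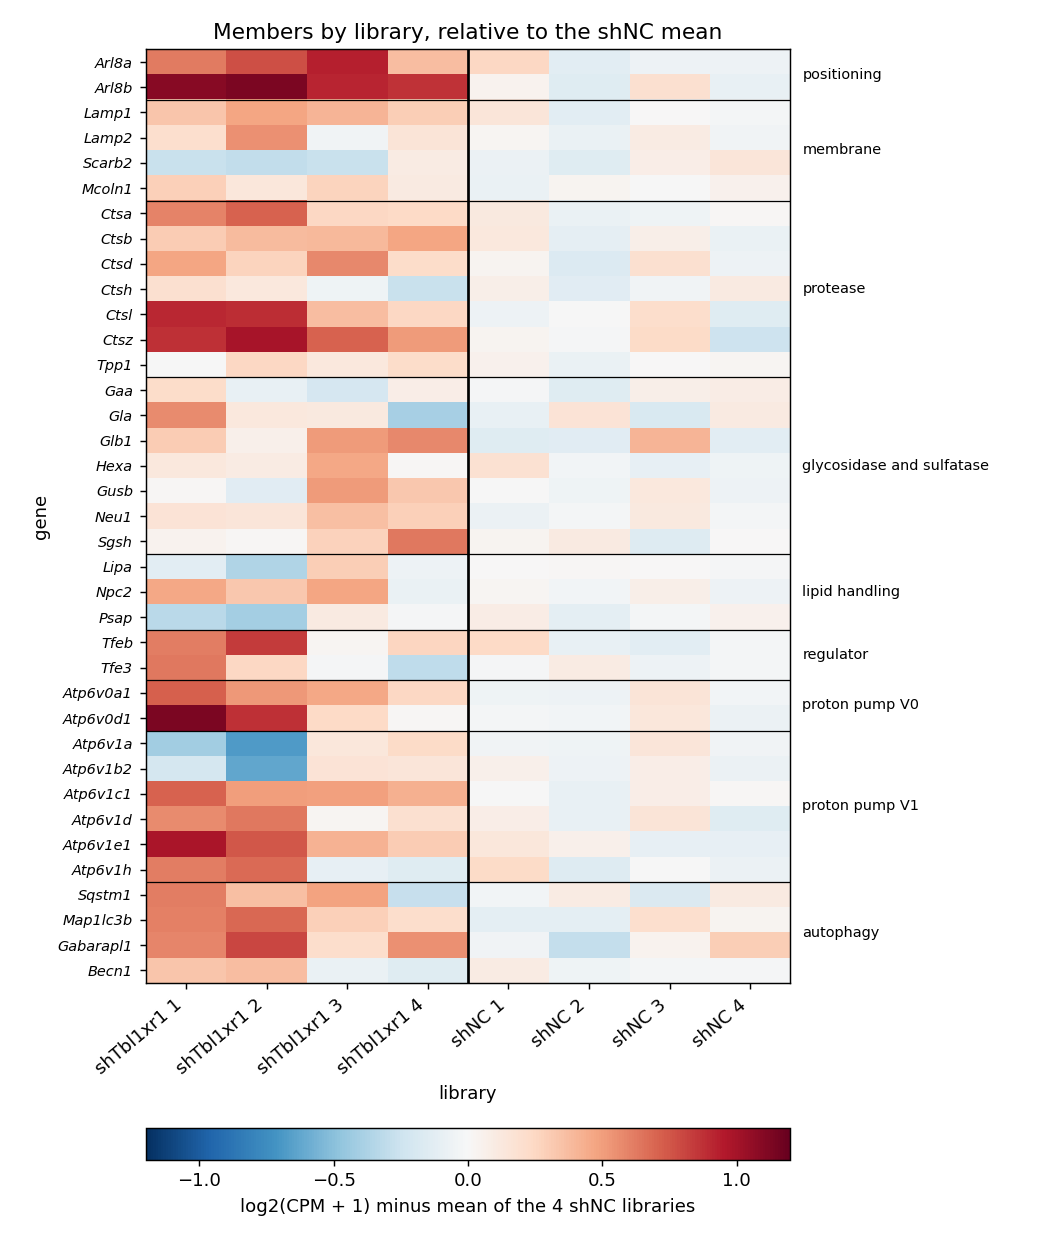
The level of each of the 37 genes in each library, as log2 of CPM plus 1 minus the mean of the 4 shNC libraries, with genes grouped by role and shTbl1xr1 libraries to the left of shNC. Red is above and blue below the shNC mean; Arl8b is red in all 4 shTbl1xr1 libraries, whereas Atp6v1a and Atp6v1b2 are blue in shTbl1xr1 1 and 2 and pale red in shTbl1xr1 3 and 4.

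The shTbl1xr1 libraries were not alike. Libraries shTbl1xr1 1 and 2 held 10895508 and 10728583 expected counts and shTbl1xr1 3 and 4 held 26976205 and 36720879, against 25811763 to 27537235 in shNC. The share of counts on mitochondrially encoded genes was 11.3% and 14.8% in the first pair, called the shallow pair here, 4.52% and 6.26% in the deeper pair, and 4.96% to 7.34% in shNC. Tbl1xr1 itself was at 2.38, 2.07, 9.24 and 15.9 CPM in shTbl1xr1 1 to 4, against 27.2, 35.9, 33.7 and 34.6 CPM in shNC 1 to 4. All 4 shTbl1xr1 libraries lay below all shNC libraries, with a log2 fold change of -2.07 (SE 0.54, edgeR adjusted p = 0.290), and an exact permutation test, two-sided with 70 arrangements, gave p = 0.0286, the smallest it can give. Tbl1xr1 differed from shNC by -3.83 in the shallow pair and -1.42 in the deeper pair on the log2 scale. Its mean length is 6242 bases, and the longest genes had a median difference of -0.55 in the shallow pair, as described below. The part of length in the Tbl1xr1 values was not tested. The median difference of the 37 genes from the shNC mean was 0.47, 0.36, 0.29 and 0.22 on the log2 scale in shTbl1xr1 1 to 4, against 0.028, -0.078, 0.068 and -0.026 in shNC 1 to 4. The members' median was thus positive in both pairs, and 31, 30, 30 and 28 of the 37 lay above the shNC mean in shTbl1xr1 1 to 4. The summed TPM, the deposited level per transcript length, of 11 macrophage markers was 168 to 176 in the shallow pair and 676 to 681 in the deeper pair, against 565 to 793 in shNC. All 11 had negative fold changes, 0 were called, and none was at 0 in any library. Summed endothelial markers were at 9.48 to 13.6 TPM in the shallow pair and 56.9 to 58.0 in the deeper pair, against 43.2 to 58.1 in shNC. Summed hepatocyte markers were at 34398 to 34434 TPM in the shallow pair and 43658 to 57181 in the deeper pair, against 44209 to 53823 in shNC. In the shallow pair TPM was lower for most genes, with 8.87% of all genes tested above shNC and a median log2 ratio of -0.73. In log2 CPM the shallow pair's median difference from shNC was 0.019 over hepatocyte markers, which were far from alike. Apoa1 and Ttr were at 1.33 and 1.24, Hnf4a and Alb at 0.019 and 0.013, and Cps1 at -0.45. The median difference was -1.31 over macrophage, -1.08 over endothelial and -1.41 over stellate cell markers. Summed stellate cell markers were at 23.4 to 29.1 TPM in the shallow pair and 119 to 203 in the deeper pair, against 118 to 198 in shNC. Among them only Dcn, a matrix proteoglycan gene, was below every shNC library in all 4 shTbl1xr1 libraries. It was at 38.3, 44.3, 92.2 and 77.5 CPM in shTbl1xr1 1 to 4, against 102, 97.2, 125 and 118 CPM in shNC 1 to 4. In the deeper pair Dcn differed from shNC by -0.38 in log2 CPM, while the median over the 7 stellate cell markers was -0.022. Lrat was lower than Dcn in that pair, at -0.45, and Reln and Des were at -0.13 and -0.022. Col1a1, Col3a1 and Pdgfrb were at 0.59, 0.73 and 0.11. In the deeper pair, where the macrophage sum lay within the shNC range, the 37 genes' median difference was 0.20. Other sums in that pair reached outside the shNC range. Neutrophil markers were at 25.1 to 61.1 TPM, against 11.7 to 34.4 in shNC, and bile duct markers at 4.31 to 17.9, against 3.91 to 11.2. Lymphocyte markers were at 1.14 to 2.33 TPM, against 2.12 to 2.62, and red blood cell markers at 766 to 1902, against 914 to 2563. The part of cell types in either pair's values was not tested.

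The regulators Tfeb and Tfe3 encode the transcription factors that drive lysosomal genes. Tfeb was at 8.64, 10.2, 5.38 and 6.50 CPM in shTbl1xr1 1 to 4, against 6.42, 4.90, 4.75 and 5.18 in shNC 1 to 4, and its log2 fold change was 0.51 (SE 0.24, edgeR adjusted p = 0.426). The shallow pair was higher than every shNC library, shTbl1xr1 4 just above the highest of them and shTbl1xr1 3 within their range. Tfe3 was at 52.6, 40.05, 33.3 and 27.1 CPM in shTbl1xr1 1 to 4, against 33.3, 36.1, 32.3 and 33.1 in shNC 1 to 4, with a log2 fold change of 0.18 (SE 0.20, edgeR adjusted p = 0.707). Only the shallow pair was above shNC, and shTbl1xr1 4 was the lowest of the 8 libraries. Per length, Tfeb averaged 4.17 TPM in shTbl1xr1 and 3.81 TPM in shNC, which placed it second lowest of the 37 after Sgsh, at 1.88 TPM in shTbl1xr1 and 1.95 TPM in shNC.

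The element that these factors bind is shown because 6 of the genes carry it near their start. RefSeq promoters on GRCm38.p6, which is mm10, covered 30 of the 37 genes in 35 windows that run from 250 bases before to 50 bases after each start. The E-box CACGTG, which reads the same on both strands, lay in 31.4% of these windows (11 of the 30 genes), against 7.15% of all 32851 windows of the same length. The longer form TCACGTGA, also a palindrome and always containing an E-box, lay in 17.1% of the windows (6 of the 30 genes), against 0.974% of all windows. The 6 genes were Mcoln1, Ctsa, Ctsd, Gla, Atp6v0d1 and Atp6v1a. The 7 genes without a window, Arl8b, Ctsb, Ctsh, Atp6v1b2, Atp6v1c1, Atp6v1h and Becn1, were not searched. The stretches below run 5′ to 3′ on the gene's strand, with the E-boxes of Lamp1 and the longer form of the others in capitals, and positions are counted back from the base before the RefSeq start, which is -1. Lamp1 has E-boxes at -61, -45, -28 and -15 on chr8:13159091-13159160, plus strand. Mcoln1 has the longer form at -46 on chr8:3500462-3500491, plus strand, Ctsa at -13 on chr2:164833749-164833772, plus strand, and Ctsd at -99 on chr7:142387908-142387937, minus strand. Gla has it at -228 and -195 on chrX:134601182-134601244, minus strand, and Atp6v1a at -132 on chr16:44139373-44139402, minus strand. In GENCODE, the source of the gene coordinates, the stretches of Mcoln1, Ctsa and Ctsd overlap 1, 3 and 1 annotated exons of the same gene. Those of Lamp1, Gla and Atp6v1a overlap 0.
Lamp1: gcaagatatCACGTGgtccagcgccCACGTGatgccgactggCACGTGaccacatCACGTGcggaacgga
Mcoln1: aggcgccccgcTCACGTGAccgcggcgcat
Ctsa: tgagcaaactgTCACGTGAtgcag
Ctsd: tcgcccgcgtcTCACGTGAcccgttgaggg
Gla: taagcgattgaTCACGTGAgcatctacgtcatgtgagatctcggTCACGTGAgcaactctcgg
Atp6v1a: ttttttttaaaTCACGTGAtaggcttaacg
Of the 6 genes with the longer form, 5 had positive log2 fold changes, where 32 of all 37 genes did. They were 0.64 for Atp6v0d1, 0.46 for Ctsa, 0.39 for Ctsd, 0.21 for Mcoln1 and 0.13 for Gla, and Atp6v1a had -0.13. In the deeper pair alone Atp6v1a was at 0.18 and Gla at -0.14, and with library size alone Mcoln1 was at -0.086 and Gla at -0.20. A match in these windows is a description of the letters, and binding was not measured.

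Arl8a and Arl8b encode small GTPases that link lysosomes to kinesin motors and so set where lysosomes sit in the cell. Arl8b (ENSMUSG00000030105.8; chromosome 6, 108783099 to 108825278, mm10) had the largest fold change and the smallest p of the 37. It was at 80.5, 82.9, 70.9 and 68.7 CPM in shTbl1xr1 1 to 4, against 38.4, 33.5, 42.7 and 35.0 CPM in shNC 1 to 4. The groups were far apart, the lowest shTbl1xr1 library being well above the highest shNC library. The means were 75.7 ± 6.98 CPM in shTbl1xr1 and 37.4 ± 4.09 CPM in shNC (SD, n = 4 each), a 2.02-fold ratio with a log2 fold change of 1.02 (SE 0.15). Its edgeR adjusted p was 0.0669, rank 9 of all genes tested by p. It ranged from 0.0337 to 0.369 when single libraries were left out, and passed the threshold without shTbl1xr1 4, where 0.199% of all genes were called higher. It passed as well with 1 surrogate variable in the fit, at 0.0261 with 0.288% of all genes called higher. With the length trend described below removed it passed at 0.0270, with 0.187% called higher. It did not pass in limma-voom (adjusted p = 0.0546). In edgeR it did not pass with library size alone (adjusted p = 0.493), the replicate block (0.157) or the deeper pair alone (0.116). Nor did it pass there with upper quartile scaling (0.0814) or DESeq2 size factors (0.0771). Its difference from shNC was 1.13 in the shallow pair and 0.91 in the deeper pair on the log2 scale. Arl8a (ENSMUSG00000026426.10; chromosome 1, 135146824 to 135156269) was at 15.8, 17.7, 19.8 and 13.1 CPM in shTbl1xr1 1 to 4, against 11.9, 9.01, 9.43 and 9.43 CPM in shNC 1 to 4. The groups did not overlap, although shTbl1xr1 4 lay close to shNC 1. Its log2 fold change was 0.74 (SE 0.18, edgeR adjusted p = 0.252), with 0.75 in the shallow pair and 0.70 in the deeper pair. Per length Arl8b was the more abundant of the pair in every library, at 15.5, 11.1, 39.0 and 39.0 TPM in shTbl1xr1 1 to 4, against 17.9, 18.1, 26.1 and 20.1 TPM in shNC 1 to 4. Arl8a was at 7.44, 7.48, 18.5 and 12.2 TPM in shTbl1xr1 1 to 4, against 9.64, 8.65, 9.02 and 8.91 TPM in shNC 1 to 4. On the TPM scale, unlike in CPM, the shallow pair lay below every shNC library for both genes and the deeper pair above every one; TPM over all genes in the shallow pair is described with the scaling of the libraries.

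**Figure D2:**
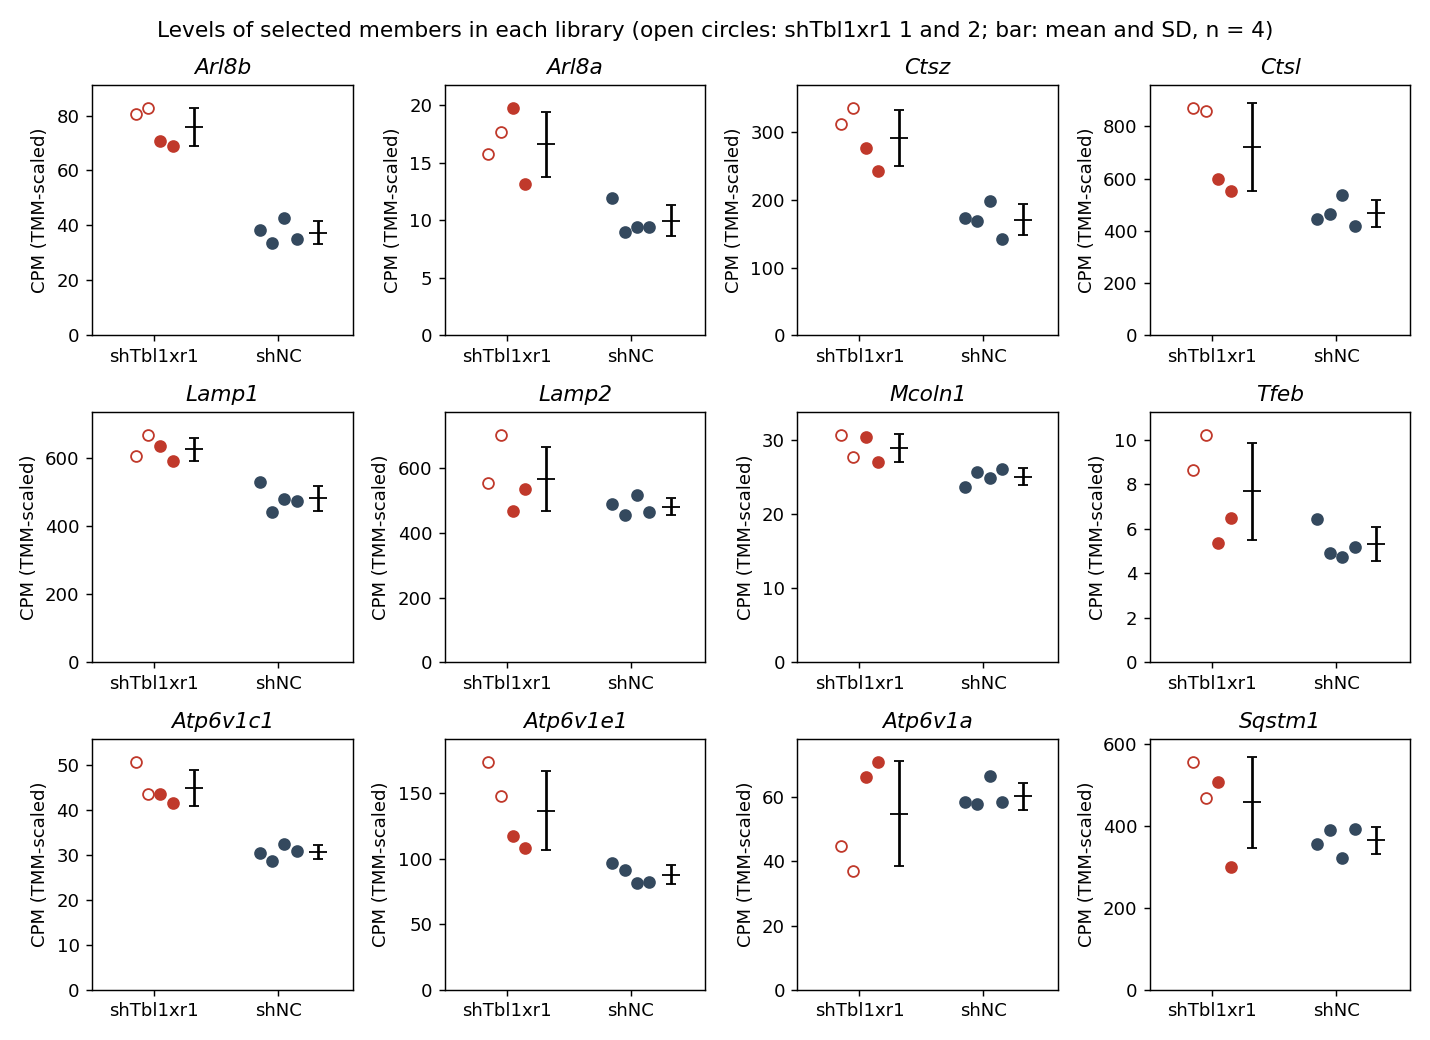
Level in CPM of 12 of the genes in each library, with shTbl1xr1 (red, shTbl1xr1 1 and 2 as open circles) to the left of shNC (blue) and bars for the mean and SD of 4 libraries; every axis starts at 0. For Arl8b the shTbl1xr1 libraries lie at 68.7 to 82.9 CPM and the shNC libraries at 33.5 to 42.7 CPM, while for Atp6v1a only the open circles lie below shNC.

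Of the 4 membrane protein genes, 3 had positive fold changes and 2 had groups that did not overlap, with none at an unadjusted p under 0.05. Over all genes 3.88% parted upward and 7.9% were higher by that p. Lamp1, which encodes a main glycoprotein of the lysosomal membrane, was at 607, 669, 637 and 592 CPM in shTbl1xr1 1 to 4, against 531, 442, 481 and 475 in shNC 1 to 4. All 4 shTbl1xr1 libraries were higher, by a log2 fold change of 0.38 (SE 0.17, edgeR adjusted p = 0.426), with 0.41 in the shallow pair and 0.35 in the deeper pair. Lamp2, whose product is needed for autophagosomes to fuse with lysosomes, was at 554, 703, 468 and 535 CPM in shTbl1xr1 1 to 4, against 488, 455, 516 and 466 in shNC 1 to 4. The groups overlapped, and the log2 fold change of 0.23 (SE 0.19, edgeR adjusted p = 0.595) was 0.11 without shTbl1xr1 2. Mcoln1, a lysosomal calcium release channel, was at 30.7, 27.6, 30.4 and 27.0 CPM in shTbl1xr1 1 to 4, against 23.6, 25.7, 24.9 and 26.1 in shNC 1 to 4. Its groups did not overlap, but by a small margin, with a log2 fold change of 0.21 (SE 0.13, edgeR adjusted p = 0.503). Scarb2, the receptor that carries glucocerebrosidase to the lysosome, had a log2 fold change of -0.18 (SE 0.17).

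All 7 protease genes had positive fold changes, from 0.0055 for Ctsh to 0.78 for Ctsz. For 5 of them (Ctsa, Ctsb, Ctsd, Ctsl and Ctsz) the groups did not overlap, where 3.88% of all genes parted upward. Ctsz (ENSMUSG00000016256.10; chromosome 2, 174427493 to 174439039), a carboxypeptidase, was at 312, 336, 277 and 242 CPM in shTbl1xr1 1 to 4, against 173, 168, 198 and 142 in shNC 1 to 4. Every shTbl1xr1 library was higher, and the means of 292 ± 41.2 CPM in shTbl1xr1 and 170.5 ± 23.0 CPM in shNC (SD, n = 4 each) gave a 1.71-fold ratio, or a log2 fold change of 0.78 (SE 0.18, edgeR adjusted p = 0.234). Ctsl, an endopeptidase, had the highest TPM of the 37 genes, at 401 TPM in shTbl1xr1 and 404 TPM in shNC. In CPM it was at 871, 860, 600 and 552 in shTbl1xr1 1 to 4, against 447, 464, 539 and 419 in shNC 1 to 4. The shallow pair was much higher than shNC, and the deeper pair only a little, with differences of 0.90 and 0.31 and a log2 fold change of 0.63 (SE 0.22, edgeR adjusted p = 0.382). Ctsa, which also protects beta-galactosidase and neuraminidase from breakdown, was at 138, 149, 108 and 107 CPM in shTbl1xr1 1 to 4, against 98.8, 85.9, 87.4 and 91.4 in shNC 1 to 4. Its groups did not overlap, and its log2 fold change was 0.46 (SE 0.16, edgeR adjusted p = 0.382). Ctsb and Ctsd had log2 fold changes of 0.38 and 0.39, and Tpp1 had 0.15.

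The 7 glycosidase and sulfatase genes encode enzymes that take apart glycogen, glycolipids and glycosaminoglycans. All 7 had positive but small fold changes, from 0.0065 for Gaa to 0.40 for Glb1, with a median of 0.21. None was at an unadjusted p under 0.05, against 7.9% of all genes higher. Neu1 alone had groups that did not overlap, where 3.88% of all genes parted upward. Glb1, the beta-galactosidase, was at 12.6, 10.5, 14.7 and 15.4 CPM in shTbl1xr1 1 to 4, against 8.93, 9.05, 13.6 and 9.09 in shNC 1 to 4. Library shNC 3 reached into the shTbl1xr1 range, and the log2 fold change was 0.40 (SE 0.20, edgeR adjusted p = 0.448). Hexa, a beta-hexosaminidase subunit and the most abundant of the 7 per length (33.6 TPM in shTbl1xr1 and 38.4 TPM in shNC), was at 57.7, 56.2, 72.8 and 53.1 CPM in shTbl1xr1 1 to 4, against 59.8, 51.5, 49.1 and 50.6 in shNC 1 to 4. The groups overlapped, and the log2 fold change was 0.18 (SE 0.15, edgeR adjusted p = 0.597).

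Of the 3 genes for lipid handling, Npc2 had a positive fold change and Lipa and Psap had negative ones, and in none did the groups part. Npc2, which binds cholesterol in the lysosomal lumen, was at 80.2, 72.8, 80.7 and 54.6 CPM in shTbl1xr1 1 to 4, against 59.0, 56.4, 60.8 and 55.3 in shNC 1 to 4. Libraries shTbl1xr1 1 to 3 were above shNC and shTbl1xr1 4 was the lowest of all 8, with a log2 fold change of 0.32 (SE 0.16, edgeR adjusted p = 0.443). Psap, the precursor of the saposins that help break down sphingolipids, was at 481, 453, 650 and 596 CPM in shTbl1xr1 1 to 4, against 640, 554, 591 and 625 in shNC 1 to 4. The shallow pair lay below shNC and the deeper pair in or above its range, with a log2 fold change of -0.14 (SE 0.19, edgeR adjusted p = 0.750). Lipa, the lysosomal acid lipase, had a log2 fold change of -0.046 (SE 0.18).

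Of the 8 proton pump genes, 6 had positive fold changes, 4 were at an unadjusted p under 0.05 and 3 had groups that did not overlap. Over all genes 7.9% were higher by that p and 3.88% parted upward. In V0, Atp6v0a1, a large membrane subunit that takes part in moving the protons, was at 53.4, 46.5, 44.8 and 38.4 CPM in shTbl1xr1 1 to 4, against 31.0, 30.7, 35.8 and 31.3 in shNC 1 to 4. The groups did not overlap, and the log2 fold change was 0.50 (SE 0.15, edgeR adjusted p = 0.327). Atp6v0d1, a V0 subunit at the junction with V1, was at 151, 127, 81.0 and 69.0 CPM in shTbl1xr1 1 to 4, against 67.3, 66.8, 75.1 and 65.2 in shNC 1 to 4. The shallow pair stood far above shNC and shTbl1xr1 4 lay within it, so that the differences were 1.01 in the shallow pair and 0.13 in the deeper pair around a log2 fold change of 0.64 (SE 0.25, edgeR adjusted p = 0.406).

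In V1, Atp6v1c1 (ENSMUSG00000022295.8; chromosome 15, 38661933 to 38692446), a subunit that takes part in the reversible coupling of V1 to V0, was at 50.7, 43.6, 43.5 and 41.5 CPM in shTbl1xr1 1 to 4, against 30.5, 28.6, 32.4 and 30.9 in shNC 1 to 4. The groups were well apart, and the log2 fold change was 0.55 (SE 0.13, edgeR adjusted p = 0.241), with 0.62 in the shallow pair and 0.47 in the deeper pair. Atp6v1e1, a stalk subunit and the most abundant of the 8 per length (114 TPM in shTbl1xr1 and 104 TPM in shNC), was at 174, 147, 117 and 108 CPM in shTbl1xr1 1 to 4, against 96.5, 91.2, 81.4 and 81.8 in shNC 1 to 4. The groups did not overlap, with a log2 fold change of 0.64 (SE 0.18, edgeR adjusted p = 0.327). The catalytic hexamer of V1 is made of the products of Atp6v1a and Atp6v1b2, which are singled out here after their values were seen. Atp6v1a was at 44.9, 37.1, 66.2 and 71.0 CPM in shTbl1xr1 1 to 4, against 58.4, 57.9, 66.5 and 58.4 in shNC 1 to 4. Atp6v1b2 was at 38.9, 29.1, 51.0 and 50.4 CPM in shTbl1xr1 1 to 4, against 47.3, 43.3, 47.9 and 43.2 in shNC 1 to 4. Both were below all shNC libraries in the shallow pair and in or above the shNC range in the deeper pair, with differences of -0.56 and 0.19 for Atp6v1a and -0.43 and 0.16 for Atp6v1b2. The remaining V1 genes, Atp6v1d and Atp6v1h, had log2 fold changes of 0.38 and 0.31 with groups that overlapped.

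All 4 autophagy genes had positive fold changes, and 2 were at an unadjusted p under 0.05, against 7.9% of all genes higher by that p. Map1lc3b, which encodes the LC3 protein that is attached to autophagosome membranes, was at 132, 140, 106 and 99.9 CPM in shTbl1xr1 1 to 4, against 79.4, 79.6, 99.6 and 88.5 in shNC 1 to 4. The groups did not overlap, but shTbl1xr1 4 and shNC 3 nearly touched, with a log2 fold change of 0.46 (SE 0.17, edgeR adjusted p = 0.404). Gabarapl1, of the same protein family, was at 174, 202, 133 and 169 CPM in shTbl1xr1 1 to 4, against 111, 94.1, 118 and 141 in shNC 1 to 4. Only shTbl1xr1 3 lay below the highest shNC library, and the log2 fold change was 0.54 (SE 0.19, edgeR adjusted p = 0.382). Sqstm1, which encodes the cargo receptor p62, was at 555, 467, 507 and 299.5 CPM in shTbl1xr1 1 to 4, against 355, 389, 321.5 and 391 in shNC 1 to 4. Libraries shTbl1xr1 1 to 3 were above shNC and shTbl1xr1 4 was the lowest of the 8, with a log2 fold change of 0.33 (SE 0.22, edgeR adjusted p = 0.532). Becn1, a subunit of the lipid kinase complex that starts autophagosomes, had a log2 fold change of 0.14 (SE 0.16).

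Other genes of the same pathway, taken as 137 genes in 10 lists by role, gave a median log2 fold change of 0.19 over the 136 tested. Of these, 96 had positive and 40 negative fold changes, 0 passed the edgeR threshold, 23 were higher and 1 was lower by an unadjusted p under 0.05, and in 15 the groups parted upward and in 1 downward. Over all genes 7.9% were higher and 3.71% lower by that p, and 3.88% parted upward and 3.37% downward. The gene with the smallest p was Atp6v0e2, a small V0 subunit, at 9.76, 8.42, 4.54 and 5.16 CPM in shTbl1xr1 1 to 4, against 2.19, 2.09, 1.93 and 2.15 in shNC 1 to 4. It was higher in every shTbl1xr1 library, by a log2 fold change of 1.71 (SE 0.28, edgeR adjusted p = 0.116), more in the shallow pair than in the deeper one. Ctns, which carries cystine out of the lysosome, was at 11.3, 10.9, 11.8 and 10.8 CPM in shTbl1xr1 1 to 4, against 6.49, 5.62, 6.54 and 7.25 in shNC 1 to 4. Its shTbl1xr1 libraries lay close together and above all of shNC, with a log2 fold change of 0.79 (SE 0.15, edgeR adjusted p = 0.167). Laptm4a, a lysosomal transmembrane protein gene, went the other way, at 110.0, 120.0, 108 and 112 CPM in shTbl1xr1 1 to 4, against 196, 193, 192 and 197 in shNC 1 to 4. All 4 shTbl1xr1 libraries were below shNC by a similar amount, with a log2 fold change of -0.79 (SE 0.14, edgeR adjusted p = 0.127).

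By role, 9 of the 9 other V0 and accessory genes had positive fold changes. Of these, 4 were at an unadjusted p under 0.05, against 7.9% of all genes higher, among them the accessory subunit gene Atp6ap2 at 0.63 (SE 0.16). Of 5 further V1 and accessory genes tested 4 were positive, with the subunit gene Atp6v1g1 at 0.74 (SE 0.29) and the accessory gene Rogdi at 0.73 (SE 0.32). Both were high mainly in the shallow pair, at 1.12 for Atp6v1g1 and 1.21 for Rogdi, against 0.17 each in the deeper pair. Of 14 other positioning genes 11 were positive, with the BLOC-1 and BORC subunit genes Snapin at 0.48 (SE 0.18) and Bloc1s2 at 0.64 (SE 0.29). Bloc1s2 was at 1.09 in the shallow pair and 0.043 in the deeper pair, and Snapin at 0.70 and 0.24. Of 18 membrane genes 12 were positive. By an unadjusted p under 0.05, 6 were higher and 1, Laptm4a, was lower, against 7.9% and 3.71% of all genes. Of 11 further proteases 6 were positive, with the peptidase genes Dpp7 at 0.65 (SE 0.16) and Scpep1 at 0.50 (SE 0.16). Of 17 further glycosidases and sulfatases 12 were positive, with the sulfatase gene Galns at 0.53 (SE 0.17). The 16 other regulators were divided, 9 positive and 7 negative, with the scaffold genes Lamtor1 at 0.87 (SE 0.27) and Lamtor4 at 0.85 (SE 0.38), both of which were high mainly in the shallow pair. Of 31 other autophagy genes 20 were positive, with the lipid transfer protein gene Atg2a at 0.43 (SE 0.15) and the mitophagy receptor gene Bnip3l at 0.34 (SE 0.15). Of 9 genes that sort enzymes to the lysosome 8 were positive, with Nagpa at 0.35 (SE 0.19) and the sorting receptor gene Sort1 at 0.33 (SE 0.19). Of 6 further lipid genes 5 were positive, with the activator protein gene Gm2a at 0.53 (SE 0.25) and Smpd1, the acid sphingomyelinase, at 0.33 (SE 0.17).

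**Figure D3:**
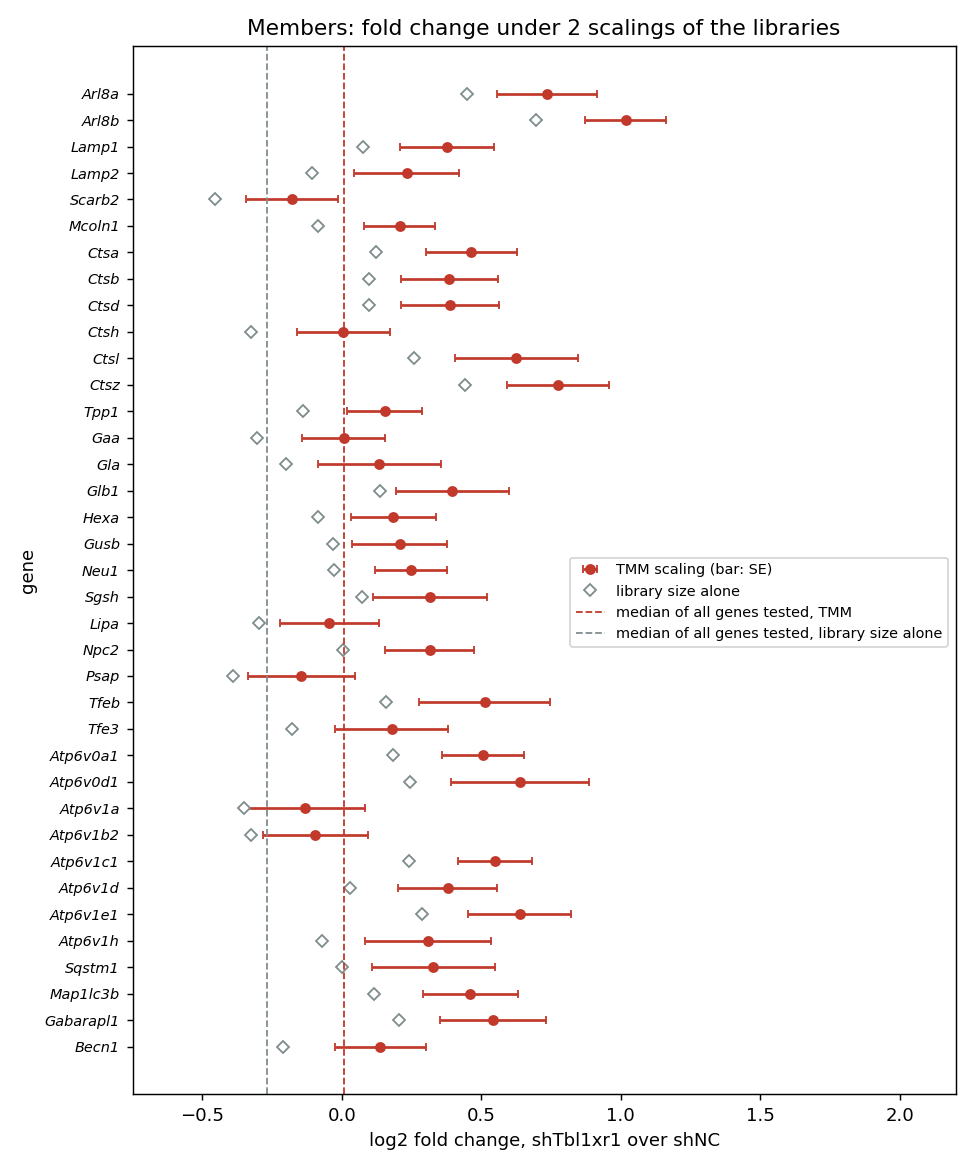
Log2 fold change of shTbl1xr1 over shNC for the 37 genes with libraries scaled by TMM (red circles, bar 1 SE) and by library size alone (grey diamonds); dashed lines mark the median of all genes tested under each scaling. Both the genes and the median move to the left with library size alone, the gene medians being 0.32 and 0.0056 and the medians of all genes 0.0063 and -0.27.

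The scaling of the libraries set how many fold changes were positive. With library size alone the median of all genes moved to -0.27, and the median of the 37 genes was 0.0056, which is 0.27 above it, against 0.31 above it with TMM. On that scale 20 of the 37 were positive and 2 were higher at an unadjusted p under 0.05, against 1.81% of all genes, and Lamp2, Mcoln1 and Tfe3 were among 12 that turned negative. Arl8b and Arl8a stayed positive, at 0.70 and 0.45. The deposited TPM gave a different sign for many genes, since their group mean was higher in shTbl1xr1 for 11 of the 37. That came to 2 of the 37 in the shallow pair and 29 in the deeper pair. The share over all genes was worked out for the shallow pair alone, so the counts of 29 and 11 cannot be set against one. In the shallow pair 8.87% of all genes tested had a higher TPM than in shNC, with a median log2 ratio of -0.73 over all genes and -0.70 over the 37, and mitochondrially encoded genes took 17.4% to 21.9% of all TPM, against 9.93% to 15.8% in the other 6 libraries.

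**Figure D4:**
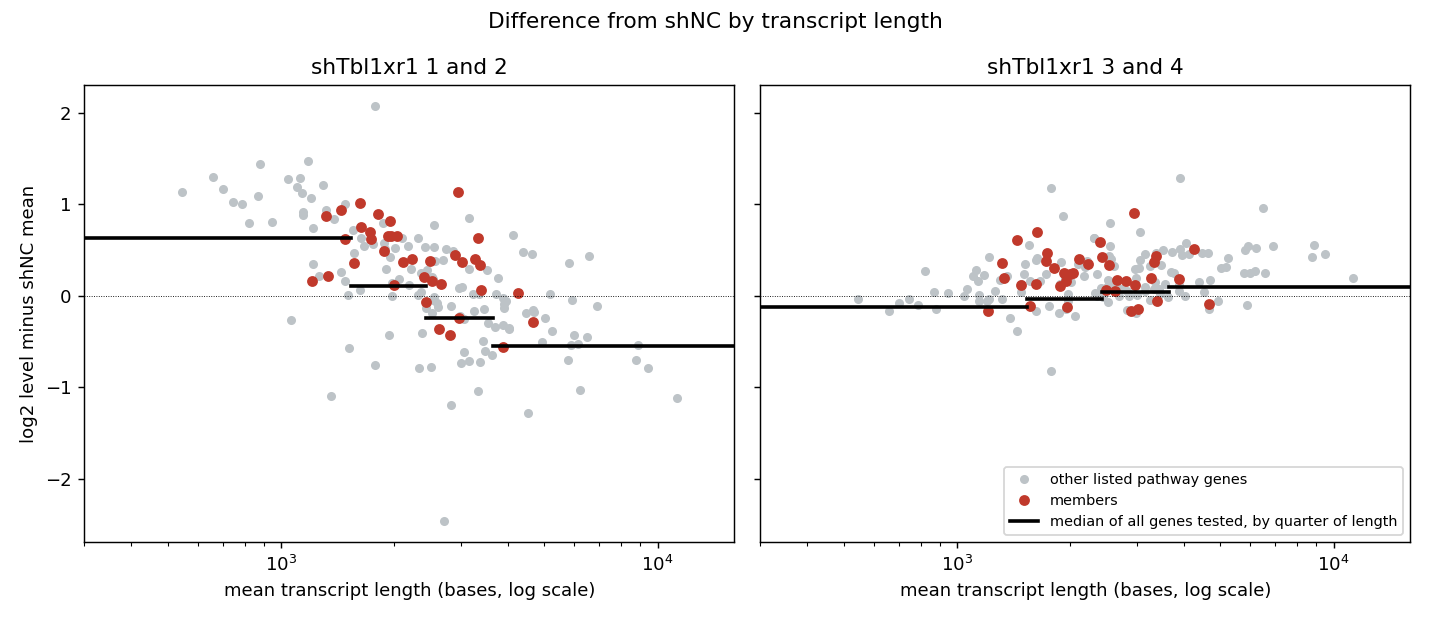
Difference from the shNC mean on the log2 scale against mean transcript length (bases, log axis) in shTbl1xr1 1 and 2 (left) and shTbl1xr1 3 and 4 (right), for the 37 genes (red) and the other pathway genes (grey). Black lines are medians of all genes tested in 4 bins by length with 3477 genes in each. The black lines fall from 0.64 to -0.55 across the left panel and lie between -0.12 and 0.10 in the right panel.

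In the shallow pair the difference from shNC went with transcript length over the whole transcriptome. From the shortest to the longest of 4 equal bins of genes, the median difference of all genes was 0.64, 0.11, -0.24 and -0.55 in the shallow pair and -0.12, -0.040, 0.037 and 0.098 in the deeper pair. The 37 genes, of which 5, 15, 14 and 3 fell in these bins, had medians of 0.62, 0.66, 0.25 and -0.28 in the shallow pair and 0.20, 0.25, 0.17 and 0.19 in the deeper pair. They were thus near the median of all genes in the shortest bin in the shallow pair and above it in the other 3, and above it in every bin in the deeper pair. Across the 37 genes Spearman's rho of length with the difference was -0.53 in the shallow pair and -0.055 in the deeper pair, a description over genes that share the same libraries and are not independent replicates. Atp6v1a and Psap, at 3886 and 2629 bases, had differences of -0.56 and -0.37 in the shallow pair, and Ctsz and Atp6v1e1, at 1441 and 1316 bases, had 0.94 and 0.87. Others departed from that order. Ctsh and Mcoln1, at 1211 and 1331 bases, had 0.16 and 0.22. Atp6v0a1 and Ctsb, at 3327 and 3371 bases, had 0.63 and 0.34, and Arl8b had 1.13 at 2956 bases. The part of length in single genes' values was not tested beyond the fit that follows. With the trend over length taken out of each library, an alternative added after the data were seen, 33 of the 37 were positive, with a median of 0.30. At an unadjusted p under 0.05, 19 were then higher and 0 lower, against 10.3% of all genes higher, and Arl8b was called, at a log2 fold change of 1.13.

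Counts of called genes turned on the libraries and on the tool. Against shNC, the shallow pair alone gave 19 of the 37 higher and 3 lower (Psap, Atp6v1a and Atp6v1b2) at an adjusted p under 0.05 in edgeR, where 21.5% of all genes were called higher and 21.1% lower. The deeper pair alone gave 0 in either direction, with 13 higher at an unadjusted p under 0.05, against 6.73% of all genes, and a median of 0.22. DESeq2 called 6 of the 37 higher, namely Arl8a, Arl8b, Lamp1, Ctsb, Ctsz and Atp6v1c1, and 0 lower, where it called 1.78% of all genes higher, and limma-voom called 0.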

How the data were processed

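Bulk RNA of 8 mouse liver libraries, 4 shTbl1xr1 and 4 shNC, was analysed from 1 deposited table per library. Per the file headers, each holds an expected count, the authors' estimate of fragments per gene, with lengths, TPM and FPKM. Per the submitters' processing notes, STAR, RSEM, DESeq2 1.30.1 and mm10 were used; options, strandedness and gene models behind the counts were not given in the sources used here, so overlapping antisense genes cannot be told apart. The deposited TPM served for levels between genes and for marker sums, and the deposited FPKM only to check the files. There were 0 other columns of per-sample values. Symbols and gene coordinates came from GENCODE mouse release M21 on GRCm38, and promoters from RefSeq.

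Expected counts were rounded, genes kept by filterByExpr (13908), and libraries scaled by TMM. Groups were compared in edgeR 4.0.16 under R 4.3.3 by the robust quasi-likelihood F test, without a covariate, with Benjamini-Hochberg adjustment over all genes tested and a threshold of 0.05. The SE is the absolute log2 fold change divided by the square root of F. Printed CPM (counts scaled to the library total) are TMM-scaled, log2 differences use a prior count of 2, and the permutation test and the plot by library use log2 of CPM plus 1. Precision is lowest in shTbl1xr1 1 and 2, with the fewest counts. Alternatives used limma 3.58.1, DESeq2 1.42.0 and sva 3.50.0.

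The members and the lists were chosen with earlier results of these data known. Values in every library were given for Arl8a, Arl8b, Tfeb, Tfe3, Mcoln1, Lamp1, Lamp2 and Sqstm1, for the member of each role with the smallest p and that with the highest mean TPM, and for members at an unadjusted p under 0.05; among other pathway genes, up to 2 per list with the smallest p were named, of which 1 is not reported here. The replicate numbers were not taken to pair the libraries.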

Additional observations from a re-analysis of the deposited data

Results flagged for a closer look

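In 5 of the 74 groups of 4 libraries (37 genes in shTbl1xr1 and in shNC) the highest library stood far from the rest by Dixon's test; chance alone flags about 1 in 20 groups. Scarb2 was at 208 CPM in shTbl1xr1 4, with the next shTbl1xr1 library at 161 CPM. Arl8a was at 11.9 CPM in shNC 1, with the next shNC library at 9.43 CPM. Library shNC 3 was the high one for the other 3, at 13.6 CPM for Glb1, 35.8 CPM for Atp6v0a1 and 66.5 CPM for Atp6v1a, with the next shNC library at 9.09, 31.3 and 58.4 CPM.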

How the results depend on the processing

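The members' median log2 fold change, 0.32, was positive in all 19 alternatives. It moved by more than the spread of that median between shNC libraries with library size alone (0.0056), upper quartile scaling (0.24), 1 surrogate variable (0.22), the deeper pair alone (0.22) and the shallow pair alone (0.38), and lay at 0.28 to 0.36 with 1 library left out. The count called higher was 0, but 6 in DESeq2, 19 (with 3 lower) in the shallow pair, 1 each with 1 surrogate variable and with the length trend removed, and 0 to 1 with 1 library left out. Same-numbered libraries correlated at 0.38, -0.074, 0.30 and 0.12 in their deviations, and differently numbered ones at -0.38 to 0.37. These values do not settle whether the numbers pair the libraries, and the labels state no pairing, so the numbers were not taken as pairs. With the replicate block the median was 0.30 and 0 members were called. Tbl1xr1, at -2.07 with an edgeR adjusted p of 0.290, passed the threshold in DESeq2 (-2.13), with 1 surrogate variable (-1.56) and in the shallow pair (-3.88).

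Among the genes with values in the text, the following changed sign. With library size alone they were Atp6v1h (-0.072), Becn1 (-0.21), Ctsh (-0.32), Gaa (-0.30), Gla (-0.20), Gusb (-0.032), Hexa (-0.087), Lamp2 (-0.11), Mcoln1 (-0.086), Neu1 (-0.027), Tfe3 (-0.18), Tpp1 (-0.14) and Smpd1 (-0.020). With 1 surrogate variable they were Atp6v1a (0.14), Atp6v1b2 (0.11), Lipa (0.094), Psap (0.0049), Atp6v1h (-0.081), Becn1 (-0.085), Ctsh (-0.14), Gaa (-0.040), Gla (-0.099), Tfe3 (-0.11) and Lamtor4 (-0.030). In the deeper pair they were Atp6v1a (0.18), Atp6v1b2 (0.16), Lipa (0.13), Psap (0.046), Atp6v1h (-0.13), Becn1 (-0.12), Ctsh (-0.16), Gaa (-0.060), Gla (-0.14), Tfe3 (-0.16) and Lamtor4 (-0.14). Without the length trend they were Ctsh (-0.20), Lipa (0.049) and Scarb2 (0.036), and in the shallow pair Gusb (-0.069). Ctsh and Gaa reversed without the filter on low counts (-0.020 and -0.017) and with upper quartile scaling (-0.076 and -0.074), and Ctsh with the replicate block (-0.0016). With 1 library left out, Ctsh ran from -0.060 to 0.087, Gaa from -0.071 to 0.070, Gla from -0.049 to 0.29, Tfe3 from -0.014 to 0.31, Atp6v1a from -0.28 to 0.013, Atp6v1b2 from -0.20 to 0.045 and Lipa from -0.18 to 0.046. The cause was not tested. Depth limits the low genes of shTbl1xr1 1 and 2 most.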
